A study of Mus musculus with 8 samples.

Results

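The genes described here are 8 ligands and 2 receptors of the CXC chemokine family: Cxcl1, Cxcl2, Cxcl3, Cxcl5, Cxcl9, Cxcl10, Cxcl14, Cxcl16, Cxcr2 and Cxcr4. They were chosen by gene symbol from the count table, which held each of the 10 as 1 row among 25572 genes. RNA was measured by RNA sequencing in neutrophils that were sorted from PyMT-N tumours of C57/B6 mice. PyMT-N is the tumour named in the series design, and the labels give no genotype, age or treatment of the mice. There were 4 libraries of ICAM1-high cells, CD54-positive in the titles, and 4 libraries of ICAM1-low cells, CD54-negative in the titles. ICAM1, also called CD54, is a surface protein to which leukocytes adhere through beta-2 integrins. Libraries carried the numbers 1, 2, 3 and 5 in both groups, which is the order used wherever 4 values of a group are given, and the input of each was 150 pg of total RNA. The labels do not say whether libraries of a group came from separate mice, so the p-values reflect only how these libraries vary, and some of that variation may be technical.

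CXC chemokines are small secreted or membrane-bound proteins that guide leukocytes through G protein-coupled receptors. Ligands with an ELR motif before their first cysteines, here Cxcl1, Cxcl2, Cxcl3 and Cxcl5, bind Cxcr2 and draw neutrophils. Cxcl9 and Cxcl10 lack that motif, are induced by interferon-gamma and draw T and NK cells through Cxcr3. Cxcl16 is made as a transmembrane protein whose receptor is Cxcr6, and Cxcl14 is expressed in many resting tissues. Cxcr4 binds Cxcl12 and holds neutrophils in the bone marrow, while Cxcr2 favours their release into the blood.

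Library totals ran from 15940080 to 21824788 estimated counts. The detection floor of 3 counts amounted to 0.121 to 0.263 CPM (counts scaled to a common library size by the TMM method), and this floor covers counting error alone. The library labelled ICAM1-low replicate 5 stood apart from the other ICAM1-low libraries. Its scaling factor was 0.718, against 0.956 to 1.17 in the other 7 libraries. It held 138 CPM of Icam1, the gene of the sorting marker, against 48.2, 58.4, 42.4 and 122 CPM across the ICAM1-high libraries and 4.31 to 18.7 CPM in the other ICAM1-low libraries. Its Icam1 mRNA therefore went against its label. Icam1 had a log2 fold change of 0.67 with all libraries (edgeR adjusted p = 0.754), against 2.64 when that library was left out (edgeR adjusted p = 0.0483). Values without it are also given for genes described here whose call or direction changed, or whose log2 fold change moved over 1.5 times.

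The labelled cell type was checked against marker genes. All 10 neutrophil markers, Cxcr2 among them, were detected in both groups, and 9 of them exceeded 1 CPM in every library. Their summed level was 1941 to 4219 CPM among the ICAM1-high libraries, against 5728 to 32191 CPM among the ICAM1-low libraries, and 3 of the 10 (S100a8, Ly6g and Retnlg) fell (edgeR adjusted p under 0.05). When the library labelled ICAM1-low replicate 5 was left out, the highest ICAM1-low sum was 13008 CPM and 5 of the 10 fell. All 10 macrophage markers exceeded 1 CPM in every library. They summed to 5100 to 15447 CPM among the ICAM1-high libraries, against 627 to 1072 CPM among the ICAM1-low libraries, and 8 of the 10 rose. With the library labelled ICAM1-low replicate 5 left out, the highest ICAM1-low sum was 667 CPM and 9 of the 10 rose. The macrophage sum was above the neutrophil sum in every ICAM1-high library and below it in every ICAM1-low library. These sums are not divided by gene length and do not give shares of cells. The 6 monocyte markers summed to 2739 to 5129 CPM among the ICAM1-high libraries, against 6677 to 14665 CPM among the ICAM1-low libraries. Of these, Ccr2, Cx3cr1 and Ms4a4c rose, Ly6c2 fell, and Fn1, which made up most of the ICAM1-low sum, averaged 2350 ± 819 CPM among the ICAM1-high libraries, against 11297 ± 3428 CPM among the ICAM1-low libraries (SD, n = 4; edgeR adjusted p = 0.0571). With the library labelled ICAM1-low replicate 5 left out, Fn1 also fell past the threshold (log2 fold change -2.45; edgeR adjusted p = 0.0177). The summed ranges of all 3 lists were separate between the groups, and none of their markers was at 0 in any library. All 6 fibroblast markers exceeded 1 CPM in every library and 0 passed the edgeR threshold. They summed to 430 to 1909 CPM among the ICAM1-high libraries, against 1504 to 2345 CPM among the ICAM1-low libraries. With the library labelled ICAM1-low replicate 5 left out, the lowest ICAM1-low sum was 2132 CPM. Sums of dendritic, B, epithelial or tumour and endothelial cell markers overlapped between the groups with all 8 libraries. The part of these lists in the results below was not tested, and in such bulk samples fewer cells of a type and less RNA per cell cannot be told apart.

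Across the family, Cxcl16 was the gene that rose past the threshold, and the remaining tested members did not pass it in the comparison of all 8 libraries. Of the 10 members, 9 passed the filter on low counts and Cxcl5 did not. By edgeR's quasi-likelihood test with Benjamini-Hochberg adjustment over 13575 genes, 1 of the 9 passed as higher and 0 as lower, beside 1.22% of all tested genes called higher, 0.273% called lower and 1.5% called in either direction. At an unadjusted p under 0.05, 2 members were higher (Cxcl9 and Cxcl16) and 2 were lower (Cxcl2 and Cxcr2), beside 16.9% of all tested genes in either direction. DESeq2 and limma-voom each called 2 members higher and 1 lower. Over the same 13575 genes DESeq2 called 584 higher and 649 lower, and limma-voom 480 higher and 376 lower. The median log2 fold change was -0.02 over the 9 tested members and -0.07 over all tested genes. That member median is the value of Cxcr4, which was 0.84 with the library labelled ICAM1-low replicate 5 left out, where the all-gene median was 0.07. In that fit 2 of the 9 members passed as higher (Cxcl9 and Cxcl16) and 1 as lower (Cxcr2), beside 337 higher and 241 lower of all 14286 genes tested. The groups did not overlap for 2 members that were higher, Cxcl9 and Cxcl16, and for 2 that were lower, Cxcl14 and Cxcr2. Over all tested genes such a separation occurred in 7.51% upward and 3.89% downward.

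**Figure D1:**
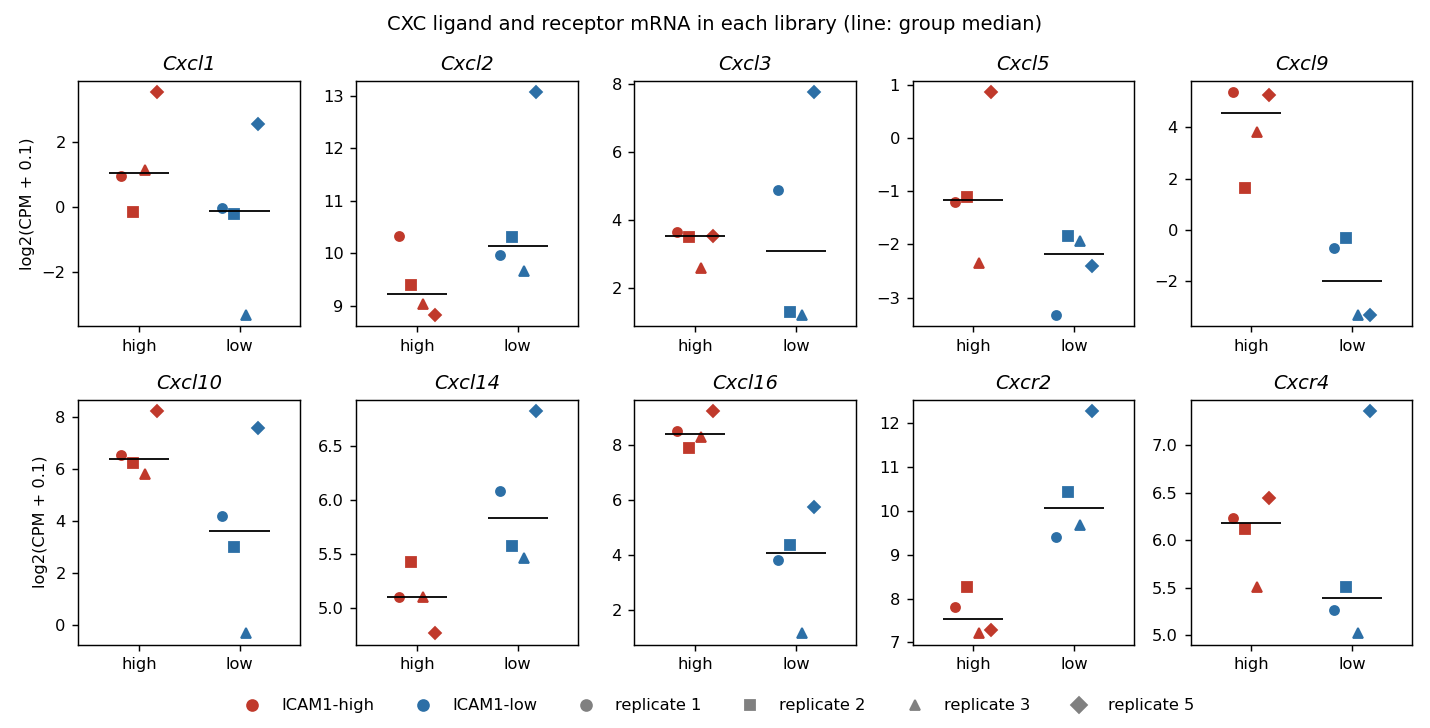
Level of each of the 10 genes in every library, as log2(CPM + 0.1), with ICAM1-high left of ICAM1-low, marker shapes for replicate numbers and a line at the group median. Cxcl16 and Cxcl9 are higher in every ICAM1-high library, Cxcr2 is lower, and the library labelled ICAM1-low replicate 5 is the highest ICAM1-low library for Cxcl1, Cxcl2, Cxcl3, Cxcl10, Cxcl14, Cxcl16, Cxcr2 and Cxcr4.

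Per gene length, Cxcl2 had the highest mean level of the 8 ligands in both groups, and its group difference did not pass the threshold. Cxcl2 (ENSMUSG00000058427), a neutrophil attractant of mouse myeloid cells, stood at 1284, 672, 523 and 452 CPM across the ICAM1-high libraries, against 994, 1269, 811 and 8609 CPM across the ICAM1-low libraries. The ICAM1-high replicate 1 library lay inside the ICAM1-low range, so the groups overlapped. The mean was 733 ± 379 CPM among the ICAM1-high libraries, against 2921 ± 3797 CPM among the ICAM1-low libraries (SD, n = 4), which fitted as -1.99 ± 0.81 in log2 fold change (with its SE; edgeR adjusted p = 0.24). When the library labelled ICAM1-low replicate 5 was left out, the fold change on that scale was -0.48 (edgeR adjusted p = 0.583), and the mean of the other 3 ICAM1-low libraries was 1025 ± 231 CPM.

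Cxcl3 (ENSMUSG00000029379), a close relative of Cxcl2 that also acts through Cxcr2, had a lower mean level per gene length than Cxcl2 in both groups. Its level was 12.4, 11.2, 5.89 and 11.5 CPM across the ICAM1-high libraries. It was 29.4, 2.37, 2.24 and 215 CPM across the ICAM1-low libraries. The ICAM1-low libraries thus lay on both sides of the ICAM1-high ones, with a 2.10-fold spread within the ICAM1-high group, against a 96.1-fold spread within the ICAM1-low group. The log2 fold change was -2.60 ± 1.21 (SE, n = 4 against 4; edgeR adjusted p = 0.306) and was -0.16 without the library labelled ICAM1-low replicate 5 (edgeR adjusted p = 0.951).

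Cxcl1 and Cxcl5, the other ELR ligands, were at low levels, with some libraries at or near the detection floor. Cxcl1 (ENSMUSG00000029380) had 1.85, 0.806, 2.12 and 11.5 CPM across the ICAM1-high libraries, against 0.871, 0.771, 0 and 5.79 CPM across the ICAM1-low libraries. In both groups the library numbered 5 was the highest, and the groups overlapped. The log2 fold change was 1.14 ± 1.45 (SE; edgeR adjusted p = 0.731), and it ran from -0.16 without ICAM1-high replicate 5 to 2.86 without the library labelled ICAM1-low replicate 5, with neither value past the threshold. Cxcl5 (ENSMUSG00000029371) had 7, 9, 2 and 31 counts across the ICAM1-high libraries, against 0, 3, 3 and 1 counts across the ICAM1-low libraries. It did not pass the filter, and without a filter its log2 fold change was 2.47 ± 2.00 (SE; edgeR adjusted p = 0.503).

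The promoters of Cxcl1, Cxcl2, Cxcl3 and Cxcl10 are shown because they share a sequence feature that the choice by name did not use, a match to the kappaB consensus. Cxcl9, whose window held no full match to it, is shown beside them. RefSeq promoter windows of build GRCm38.p6, each 300 bases long with 250 before the annotated start, were found for 8 of the 10 members (not for Cxcl5 and Cxcl16). The deposited counts were made on another build, so these coordinates belong to the promoter table only. The stretches end at the base before the start and lie at chr5:90891135-90891244 (+ strand, Cxcl1), chr5:90903789-90903898 (+ strand, Cxcl2), chr5:90785991-90786100 (+ strand, Cxcl3), chr5:92348890-92349104 (- strand, Cxcl10) and chr5:92328080-92328189 (- strand, Cxcl9). Capitals mark matches to the kappaB consensus, to the core of the interferon-stimulated response element (GAAA, any 2 bases, GAAA), or to the TATA box TATAAA, on either strand.
Cxcl1: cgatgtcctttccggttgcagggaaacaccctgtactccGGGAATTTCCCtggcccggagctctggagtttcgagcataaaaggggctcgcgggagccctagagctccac
Cxcl2: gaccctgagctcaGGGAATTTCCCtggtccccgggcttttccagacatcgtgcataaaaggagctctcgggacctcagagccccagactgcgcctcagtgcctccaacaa
Cxcl3: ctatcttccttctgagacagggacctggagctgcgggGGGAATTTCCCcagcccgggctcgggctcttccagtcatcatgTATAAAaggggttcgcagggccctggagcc
Cxcl10: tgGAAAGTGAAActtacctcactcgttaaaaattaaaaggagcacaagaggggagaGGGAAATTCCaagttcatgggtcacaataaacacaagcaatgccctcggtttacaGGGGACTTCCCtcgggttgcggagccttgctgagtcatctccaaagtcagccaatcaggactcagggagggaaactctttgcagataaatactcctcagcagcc
Cxcl9: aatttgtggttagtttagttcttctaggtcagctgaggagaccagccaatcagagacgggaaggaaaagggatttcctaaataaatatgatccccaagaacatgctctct

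Cxcl1, Cxcl2 and Cxcl3 each carried the same 11-base run GGGAATTTCCC, which begins 71, 97 and 73 bases before the start in that order of genes and holds overlapping kappaB matches on both strands. That run, on either strand, was present in 14 of 32817 promoter windows (0.0427%). The Cxcl10 window held the run GGGGACTTCCC, which begins 104 bases before the start, another kappaB match at 159 bases and an interferon-stimulated response element match at 213 bases. A kappaB match was present in 8.46% of all promoter windows, an interferon-stimulated response element match in 3.43% and TATAAA in 13.6%, and in 4, 2 and 3 of the 8 members in the same order. These genes lie together on chromosome 5: in the RefSeq order of coding genes (assembly GRCm38.p6), Cxcl5, Ppbp, Pf4, Cxcl3, Cxcl15, Cxcl1 and Cxcl2 follow each other, and Cxcl9 and Cxcl10 lie further along. For the genes with the shared run the log2 fold changes were 1.14 for Cxcl1, -1.99 for Cxcl2 and -2.60 for Cxcl3, none of them past the threshold. The Cxcl9 window held a TATAAA match that begins 195 bases before the start, outside the stretch shown. A match describes letters and does not show that a factor bound there, and lack of a full match does not show that none binds.

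**Figure D2:**
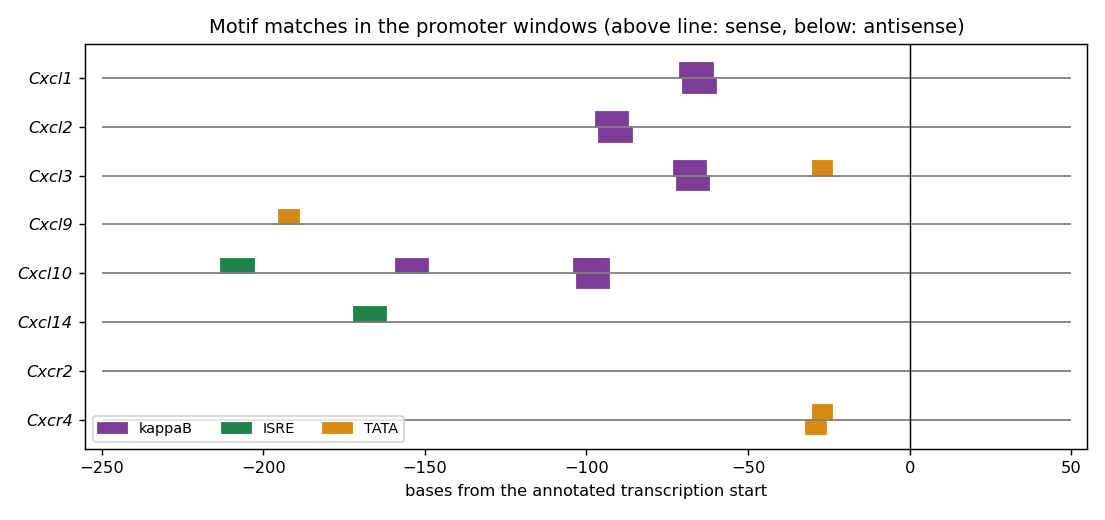
Positions of kappaB, interferon-stimulated response element (ISRE) and TATA box matches in the promoter windows of 8 genes, in bases from the annotated transcription start, with sense matches above and antisense matches below each line. Cxcl1, Cxcl2, Cxcl3 and Cxcl10 each hold a kappaB match that begins 71 to 104 bases before the start, and the Cxcr2 window holds none of the motifs.

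Cxcl9 and Cxcl10, the interferon-gamma-inducible ligands of Cxcr3, had higher means in ICAM1-high libraries, and neither passed the threshold. Cxcl9 (ENSMUSG00000029417) stood at 41.4, 3.02, 14.0 and 38.5 CPM across the ICAM1-high libraries, against 0.512, 0.712, 0 and 0 CPM across the ICAM1-low libraries. Every ICAM1-high library lay above every ICAM1-low library. As a log2 fold change this was 6.25 ± 1.43 (SE, n = 4 against 4; edgeR adjusted p = 0.0575), and with 2 ICAM1-low libraries at 0 its size is uncertain. It was past the threshold without the library labelled ICAM1-low replicate 5 (5.86; edgeR adjusted p = 0.0429), without a filter (6.24; edgeR adjusted p = 0.0111) and with DESeq2 (6.24; adjusted p = 2.61e-06), but not with limma-voom (adjusted p = 0.121). With the library number added to the fit as a block it was 6.83 (edgeR adjusted p = 0.0430). Of the 8 fits that left out 1 library, 1 was past it, and the edgeR adjusted p reached 0.162 in the rest.

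Cxcl10 (ENSMUSG00000034855) had 94.6, 75.9, 56.3 and 307 CPM across the ICAM1-high libraries, against 18.4, 7.89, 0.692 and 195 CPM across the ICAM1-low libraries. The library labelled ICAM1-low replicate 5 lay above 3 of the 4 ICAM1-high libraries, and the other ICAM1-low libraries lay below all of them. The fitted log2 fold change was 1.27 ± 1.20 (SE; edgeR adjusted p = 0.63), and 3.87 without that library (edgeR adjusted p = 0.0591). With the library number as a block it was 2.99 (edgeR adjusted p = 0.0662). With limma-voom and sample weights, which count a deviating library less, it was 3.37 and past the threshold (adjusted p = 0.0496).

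Cxcl16 (ENSMUSG00000018920), the transmembrane ligand of Cxcr6, rose in ICAM1-high libraries. Its level was 361, 239, 313 and 610 CPM across the ICAM1-high libraries, against 14.1, 20.3, 2.13 and 53.2 CPM across the ICAM1-low libraries. The lowest ICAM1-high library lay well above the highest ICAM1-low library, and the groups were also separate when scaled by library size alone or per gene length. The mean was 381 ± 161 CPM among the ICAM1-high libraries, against 22.5 ± 21.9 CPM among the ICAM1-low libraries (SD, n = 4), which fitted as 4.09 ± 0.83 in log2 fold change (with its SE; edgeR adjusted p = 0.0405), or 17.0-fold. The adjusted p was 0.106, 0.0843, 0.0698 and 0.103 without ICAM1-high replicates 1, 2, 3 and 5, and 0.117 and 0.105 without ICAM1-low replicates 1 and 2, so the call was lost in those 6 fits. It was kept without ICAM1-low replicate 3 (edgeR adjusted p = 0.0333) and without the library labelled ICAM1-low replicate 5 (log2 fold change 4.96; edgeR adjusted p = 0.0127). The macrophage markers, which summed to 5100 to 15447 CPM among the ICAM1-high libraries, against 627 to 1072 CPM among the ICAM1-low libraries, moved in the same direction, and their part in this result was not tested.

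Cxcl14 (ENSMUSG00000021508), a ligand of resting tissues, had a lower mean in ICAM1-high libraries and did not pass the threshold. It measured 34.4, 43.0, 34.3 and 27.1 CPM across the ICAM1-high libraries, against 67.9, 47.7, 44.1 and 114 CPM across the ICAM1-low libraries. The highest ICAM1-high and the lowest ICAM1-low library were close, and the groups overlapped when scaled by library size alone and when expressed per gene length. In the fit, the log2 fold change was -0.98 ± 0.46 (SE, n = 4 against 4) and did not pass the threshold (edgeR adjusted p = 0.308). It was -0.61 with the library labelled ICAM1-low replicate 5 left out (edgeR adjusted p = 0.443).

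Of the receptors, Cxcr2 separated the groups and Cxcr4 did not. Cxcr2 (ENSMUSG00000026180), the receptor through which neutrophils follow the ELR ligands, had 224, 308, 148 and 155 CPM across the ICAM1-high libraries. It had 671, 1382, 822 and 4970 CPM across the ICAM1-low libraries. Every ICAM1-high library lay below every ICAM1-low library, on the TMM scale, with library sizes alone and per gene length. On the log2 scale the fold change was -3.23 ± 0.71 (SE, n = 4 against 4), just outside the threshold (edgeR adjusted p = 0.0502). When the library labelled ICAM1-low replicate 5 was left out, the difference was smaller and past it (-2.19; edgeR adjusted p = 0.0259), and it was also past it without ICAM1-low replicate 3 (-3.48; edgeR adjusted p = 0.0424) and with DESeq2 (adjusted p = 8.98e-05). With the library number as a block it was -2.73 (edgeR adjusted p = 0.0443). Of the 8 fits that left out 1 library, 2 were past it, and the edgeR adjusted p was 0.0668 to 0.153 in the rest. The other 9 neutrophil markers summed to 1786 to 3911 CPM among the ICAM1-high libraries, against 4905 to 27220 CPM among the ICAM1-low libraries, or up to 11626 CPM with the library labelled ICAM1-low replicate 5 left out. The monocyte marker sum was also lower in every ICAM1-high library, but most of the ICAM1-low sum was Fn1. Single genes of that list went both ways. Ccr2, Cx3cr1 and Ms4a4c rose (log2 fold changes of 3.81, 3.06 and 4.29) and Ly6c2 fell (-2.60). Fn1 (-2.27) and F13a1 (-0.52) were lower without passing the threshold with all 8 libraries. With the library labelled ICAM1-low replicate 5 left out, Fn1 passed it (-2.45; edgeR adjusted p = 0.0177) and F13a1 did not (-0.86; edgeR adjusted p = 0.5). The part of the neutrophil and monocyte lists in the Cxcr2 values was not tested.

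Cxcr4 (ENSMUSG00000045382), the Cxcl12 receptor, had 75.2, 69.7, 45.4 and 87.2 CPM across the ICAM1-high libraries, against 38.5, 45.4, 32.4 and 165 CPM across the ICAM1-low libraries. The groups overlapped, and the library labelled ICAM1-low replicate 5 was the highest of all 8. As a log2 fold change this was -0.02 ± 0.57 (SE; edgeR adjusted p = 0.99), and its sign turned with the scaling, to 0.12 with upper-quartile scaling and 0.35 with library sizes alone. When the library labelled ICAM1-low replicate 5 was left out, it was 0.84 and not past the threshold (edgeR adjusted p = 0.271).

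**Figure D3:**
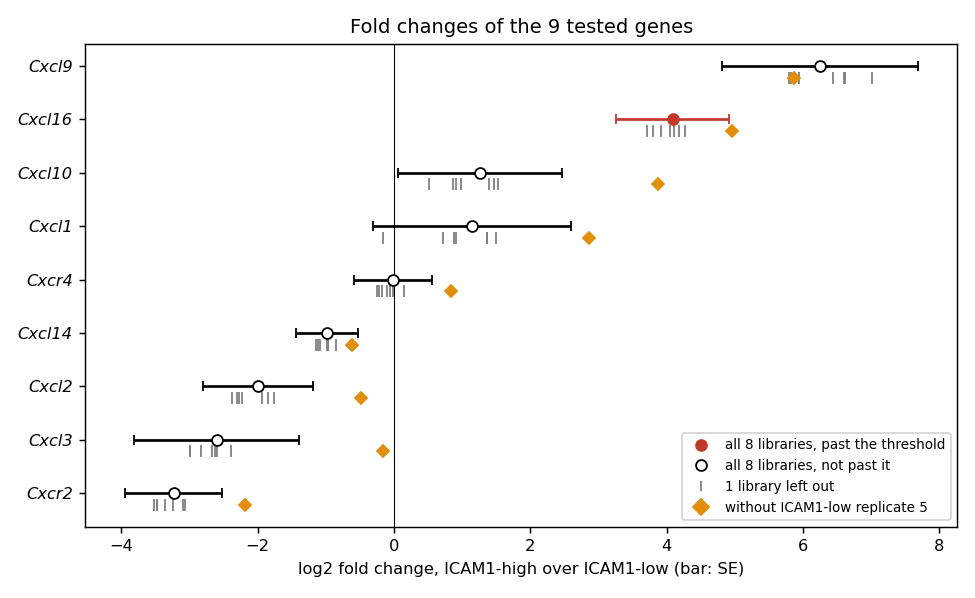
Log2 fold change of ICAM1-high over ICAM1-low for the 9 tested genes, with the standard error as a bar, grey ticks for fits that leave out 1 library and a diamond for the fit without the library labelled ICAM1-low replicate 5. Cxcl16 (4.09) is the filled point past the threshold, and the diamond moves Cxcl2 to -0.48, Cxcl3 to -0.16 and Cxcl10 to 3.87.

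Ratios of genes within a library do not depend on the scaling between libraries. They separated the groups for each of the 3 pairs examined, which were chosen with earlier results of these data known. Cxcr2 and Cxcl16 also separated the groups by themselves, so their ratios are not separate support. How often other gene pairs separate the groups was not examined. The log2 ratio of Cxcr4 to Cxcr2 counts was -1.57, -2.15, -1.70 and -0.83 across the ICAM1-high libraries, against -4.12, -4.93, -4.67 and -4.92 across the ICAM1-low libraries. The library labelled ICAM1-low replicate 5, although high for both receptors, lay within the range of the other ICAM1-low libraries in this ratio. Per gene length, Cxcr4 reached 0.536 to 1.33 times the level of Cxcr2 in ICAM1-high libraries and 0.0779 to 0.136 times in ICAM1-low libraries.

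Cxcl16 and Cxcl10 were also set against Cxcl2. The log2 ratio of Cxcl16 to Cxcl2 counts ran from -1.83 to 0.43 in ICAM1-high and from -8.57 to -5.96 in ICAM1-low libraries. That of Cxcl10 to Cxcl2 ran from -3.76 to -0.56 in ICAM1-high and from -10.2 to -5.46 in ICAM1-low libraries. In both ratios the ICAM1-high library numbered 5 was the highest of all. No test was made of these ratios.

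**Figure D4:**
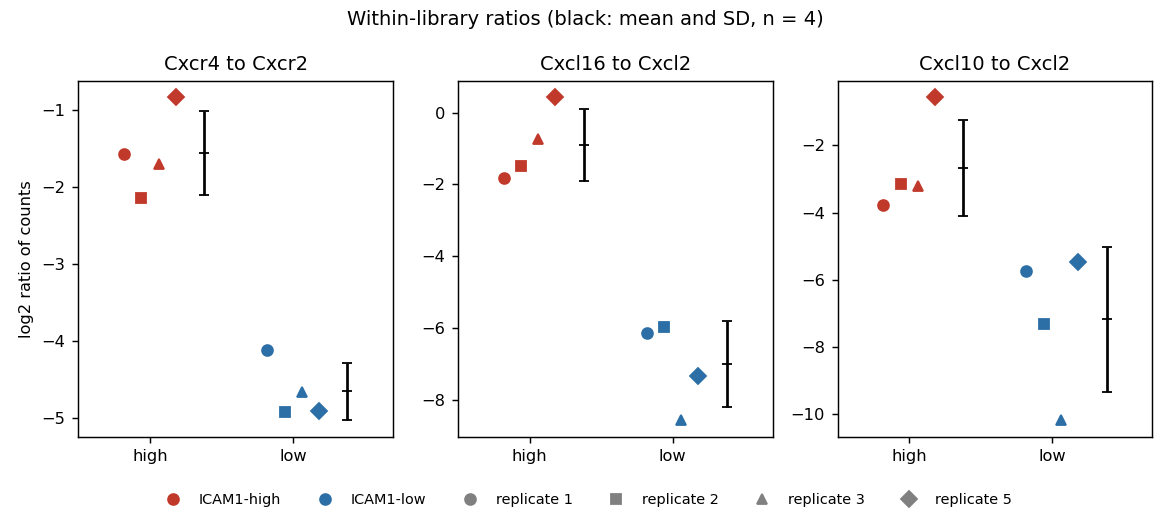
Log2 ratio of counts of Cxcr4 to Cxcr2, Cxcl16 to Cxcl2 and Cxcl10 to Cxcl2 in each library, ICAM1-high left of ICAM1-low, with the group mean and SD (n = 4) in black. The groups do not overlap in any panel, and the Cxcr4 to Cxcr2 ratio averages -1.56 ± 0.54 among the ICAM1-high libraries, against -4.66 ± 0.38 among the ICAM1-low libraries.

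Levels were compared between genes as TPM, which divides counts by gene length and scales every library to the same sum. In ICAM1-high libraries the order of mean TPM was Cxcl2 (989 ± 420), Cxcl16 (342 ± 117), Cxcl10 (225 ± 177), Cxcr2 (120 ± 45.7), Cxcr4 (92.2 ± 14.2), Cxcl14 (40.1 ± 10.8), Cxcl3 (15.7 ± 3.27), Cxcl9 (13 ± 9.03), Cxcl1 (8.51 ± 9.74) and Cxcl5 (0.626 ± 0.697; SD, n = 4). Neighbours with separate ranges were Cxcl2 and Cxcl16, Cxcr4 and Cxcl14, Cxcl14 and Cxcl3, and Cxcl1 and Cxcl5, and the other neighbours overlapped. In ICAM1-low libraries the order was Cxcl2 (3323 ± 3814), Cxcr2 (955 ± 826), Cxcr4 (82.1 ± 59.1), Cxcl10 (78.1 ± 124), Cxcl3 (77.5 ± 121), Cxcl14 (70.4 ± 22.6), Cxcl16 (17.8 ± 14.7), Cxcl1 (3.36 ± 4.34), Cxcl9 (0.178 ± 0.211) and Cxcl5 (0.109 ± 0.0899). There the neighbours with separate ranges were Cxcr2 and Cxcr4, and Cxcl14 and Cxcl16. This order depended on the library labelled ICAM1-low replicate 5: over the other 3 ICAM1-low libraries it was Cxcl2 (1421 ± 347), Cxcr2 (552 ± 224), Cxcl14 (61.0 ± 15.2), Cxcr4 (52.9 ± 9.95), Cxcl3 (18.0 ± 24.8), Cxcl10 (16.2 ± 16), Cxcl16 (11.3 ± 8.69), Cxcl1 (1.23 ± 1.07), Cxcl9 (0.237 ± 0.214) and Cxcl5 (0.121 ± 0.106; TPM, SD, n = 3). In those libraries Cxcl2 and Cxcr2, and Cxcr2 and Cxcl14, had separate ranges, and the other neighbours overlapped. Cxcl16 lay above Cxcr2 in 4 of 4 ICAM1-high libraries and below it in 4 of 4 ICAM1-low libraries.

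The shares of Cxcl2, Cxcl16, Cxcl10 and Cxcl9 in the summed ligand TPM were each separate between the groups. The shares of a library add to a fixed total, so they are not independent. Cxcl2 made up 75.1, 68.6, 61.7 and 34.2% of the TPM of the 8 ligands across the ICAM1-high libraries, against 88.9, 95.0, 95.1 and 93.1% across the ICAM1-low libraries. Cxcl16 made up 14.0 to 30.6% among the ICAM1-high libraries, against 0.166 to 1.01% among the ICAM1-low libraries. For Cxcl10 the shares were 7.13 to 29.8% among the ICAM1-high libraries, against 0.105 to 2.72% among the ICAM1-low libraries. For Cxcl9 they were 0.128 to 1.20% and 0 to 0.0221% in the same order. The ligands summed to 1393 to 2079 TPM in ICAM1-high libraries, against 1151, 1556 and 1881 TPM in ICAM1-low replicates 3, 1 and 2 and 9694 TPM in the library labelled ICAM1-low replicate 5. Apart from that library the groups overlapped in this sum.

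**Figure D5:**
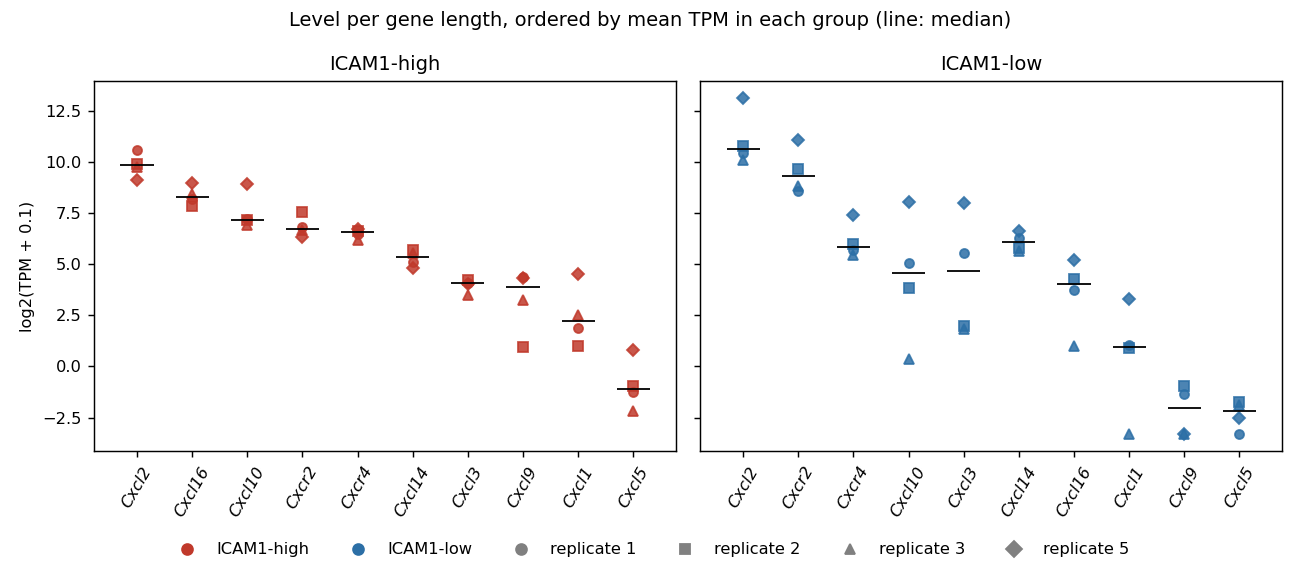
Level of the 10 genes per gene length, as log2(TPM + 0.1), in ICAM1-high (left) and ICAM1-low (right) libraries, ordered by mean TPM in each group, with points for libraries and a line at the median. Cxcl2 leads in both groups, Cxcl16 is next in ICAM1-high libraries, and Cxcr2 is next in ICAM1-low libraries.

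Other genes of the CXC system were taken from a list of 13 ligands and receptors that are not members, of which 7 were tested. Pf4, a CXC ligand of platelets that macrophages also express, rose, with 58.6 ± 11.3 CPM among the ICAM1-high libraries, against 6.03 ± 3.80 CPM among the ICAM1-low libraries (SD, n = 4; log2 change with SE 3.28 ± 0.71; edgeR adjusted p = 0.0485). Of the 7, DESeq2 and limma-voom each called 3 higher and 1 lower, beside the all-gene counts of these tools given above. With the library labelled ICAM1-low replicate 5 left out, edgeR called 3 of 8 tested higher, beside 337 of all 14286 genes tested. With all 8 libraries the others did not pass the edgeR threshold, and the median log2 fold change of the 7 was 2.10. Cxcr6, the receptor of Cxcl16, averaged 10.8 ± 4.10 CPM among the ICAM1-high libraries, against 0.621 ± 0.401 CPM among the ICAM1-low libraries (log2 fold change 4.12; edgeR adjusted p = 0.0607), and it was past the threshold when the library labelled ICAM1-low replicate 5 was left out (4.42; edgeR adjusted p = 0.0424). Cxcr3, the receptor of Cxcl9 and Cxcl10, had 19.9, 17.7, 11.8 and 18.4 CPM across the ICAM1-high libraries, against 1.95, 0.474, 0.905 and 12.5 CPM across the ICAM1-low libraries (2.10; edgeR adjusted p = 0.318). The library labelled ICAM1-low replicate 5 alone made the groups overlap for Cxcr3, and with it left out Cxcr3 passed the threshold (3.92; edgeR adjusted p = 0.0332; ICAM1-low mean 1.11 ± 0.757 CPM, SD, n = 3). Cxcr1, a receptor related to Cxcr2, averaged 3.32 ± 2.99 CPM among the ICAM1-high libraries, against 47.9 ± 49.2 CPM among the ICAM1-low libraries (-3.85; edgeR adjusted p = 0.062). Its highest value, 121 CPM, belonged to the library labelled ICAM1-low replicate 5, and the other 3 ICAM1-low libraries averaged 23.6 ± 10.4 CPM (SD, n = 3; log2 fold change with that library left out -2.84; edgeR adjusted p = 0.0754). Cxcl12, the ligand of Cxcr4, averaged 21.2 ± 13 CPM among the ICAM1-high libraries, against 51.7 ± 37.5 CPM among the ICAM1-low libraries (-1.28; edgeR adjusted p = 0.434), and Cxcl13, a B cell attractant, 41.4 ± 30.1 CPM and 2.45 ± 3.66 CPM in the same order (4.06; edgeR adjusted p = 0.182). T and NK cell markers, whose cells carry Cxcr3 and Cxcr6, summed to 60.2 to 284 CPM among the ICAM1-high libraries, against 2.11 to 38.7 CPM among the ICAM1-low libraries. Of these 8 markers 6 were tested and 1 rose, Cd4, and their part in the receptor values was not tested.

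Among 23 genes of chemokine receptor signalling, desensitisation and ligand processing, 2 rose and none fell by edgeR, with 2 higher and 2 lower at an unadjusted p under 0.05 (17.4%, near the 16.9% of all tested genes) and a median log2 fold change of 0.02. DESeq2 called 2 of them higher and 2 lower, and limma-voom 4 higher and 1 lower, beside the all-gene counts of these tools given above. With the library labelled ICAM1-low replicate 5 left out, 3 of the 23 rose, beside 337 of all 14286 genes tested. Pik3r5 was added (log2 fold change 2.03; edgeR adjusted p = 0.0346), which had 0.86 with all 8 libraries (edgeR adjusted p = 0.544). The 2 genes that rose with all 8 libraries are known to limit receptor signalling. Grk3, a kinase that phosphorylates active G protein-coupled receptors, averaged 141 ± 35.6 CPM among the ICAM1-high libraries, against 5.29 ± 4.95 CPM among the ICAM1-low libraries (log2 change with SE 4.73 ± 0.71; edgeR adjusted p = 0.0131). Rgs1, which speeds the shut-off of G proteins, averaged 558 ± 244 CPM among the ICAM1-high libraries, against 52.0 ± 27.9 CPM among the ICAM1-low libraries (3.42 ± 0.55; edgeR adjusted p = 0.0167). Adam10, a protease that sheds Cxcl16, had a log2 value of -0.24 (edgeR adjusted p = 0.811), or 0.09 with the library labelled ICAM1-low replicate 5 left out, and its relative Adam17 one of 0.81 (edgeR adjusted p = 0.327).

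Of 19 genes that act on CXC ligand expression, 18 were tested, and 1 rose and none fell by edgeR, with 1 higher and 6 lower at an unadjusted p under 0.05 (38.9%, beside 16.9% of all tested genes) and a median of -0.69. With DESeq2 there were 1 higher and 2 lower calls, and with limma-voom 1 higher and 0 lower, beside the same all-gene counts. Irf8, a transcription factor of monocytes, macrophages and dendritic cells that also acts downstream of interferon-gamma, averaged 421 ± 131 CPM among the ICAM1-high libraries, against 31.9 ± 15.0 CPM among the ICAM1-low libraries (log2 change with SE 3.72 ± 0.55; edgeR adjusted p = 0.0125). Irf1, an interferon-induced transcription factor, had a log2 value of -1.25 (edgeR adjusted p = 0.235). Nfkbiz, a nuclear cofactor of NF-kappaB, had -1.69 (edgeR adjusted p = 0.213). The RNA-binding protein gene Zfp36, which promotes decay of inflammatory mRNAs, had -0.71 (edgeR adjusted p = 0.547). When the library labelled ICAM1-low replicate 5 was left out, these were -0.64 for Irf1, -0.77 for Nfkbiz and -0.06 for Zfp36, none past the threshold. Ifng, the interferon-gamma gene, did not pass the filter and was at 0 in 2 of the 4 ICAM1-high libraries and in all 4 ICAM1-low libraries.

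Genes whose profiles over the 8 libraries lay closest to each member were found among 7509 tested genes of moderate or high expression, or 7510 for the less abundant Cxcl1 and Cxcl9, by the root mean square difference of log2 CPM centred on each gene's mean. Nearest to Cxcl16 were Aoah, a lipopolysaccharide-degrading enzyme gene (0.52), the replication gene Mcm5 (0.58) and Arl5c (0.60). Near to Cxcr2 were the guanine deaminase gene Gda (0.30) and the diacylglycerol kinase gene Dgkg (0.36). Cxcl2 was closest to the C-type lectin gene Clec4d (0.26), Rlf (0.31) and Gcnt2 (0.31). Cxcl10 was closest to Cdca3 (0.63), Sp110 (0.64) and Slfn9 (0.73). Cxcl9 was closest to Cd180 (1.06), Zmynd15 (1.09) and Ms4a4c (1.22), at distances larger than for the other members. Cxcl3 was closest to Cd274 (0.78), Mir22hg (0.84) and Slc7a11 (0.87), and Cxcl1 to Xaf1 (0.62), Lrrc25 (0.68) and Dusp2 (0.69). For Cxcr4 they were Slbp (0.18), Mtmr14 (0.21) and Rnf34 (0.22), and for Cxcl14 Mark2 (0.19) and Smurf2 (0.19). The library labelled ICAM1-low replicate 5 was the highest of all 8 for Cxcl2, Cxcl3, Cxcl14, Cxcr2 and Cxcr4. Closeness to these members can therefore rest largely on that library, and profiles were not compared without it.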

How the data were processed

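The authors deposited 1 table of 25669 rows, holding estimated counts (fractional values occur) and gene lengths. Per the submitters' processing notes the tools were Trim Galore 0.6.6 and Salmon 1.9.0 and the genome build was GRCm39 (mm39). Annotation, settings and gene-level summing: not given in the sources used here. Per the labels' protocols, the input was 150 pg of RNA and the library kit a single-cell RNA kit (QIAseq FX). No molecular identifiers are mentioned, so floors cover counting error only.

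Identifiers repeated under several symbols (88, with identical values) were kept once, leaving 25572. Counts were rounded to whole numbers, filtered with filterByExpr (13575 genes kept), scaled by TMM and compared between groups with edgeR 4.0.16 in R 4.3.3 (glmQLFit and glmQLFTest, robust), with group as the only term and a Benjamini-Hochberg adjusted p under 0.05 over all genes tested. SE is the absolute log2 fold change over the root of F. CPM uses TMM-adjusted library sizes, and TPM uses the deposited lengths. The fit was tested on simulated counts. Alternatives included DESeq2 1.42.0 and limma 3.58.1 (voom). The promoter table and gene order are of another build than the counts and serve for sequence and neighbourhood only.

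Members, lists and tests were chosen with earlier results of these data known. Named are the members, list genes, Icam1 and the 3 genes closest in profile to each member at average log2 CPM 4 or above, leaving out predicted genes. Results of 3 genes that this rule names are not reported here, and these genes remain in all counts.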

Additional observations from a re-analysis of the deposited data

Results flagged for a closer look

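Within 28 sets of 4 libraries (each gene's CPM and each ratio, per group), 10 had a library separated from the other 3 by more than Dixon's 95% critical share of the range. For normally distributed values chance flags about 1 in 20. That rate need not hold for CPM, which was used without a log scale. In all 10 sets that library was the one numbered 5. In the library labelled ICAM1-low replicate 5 these were 5.79 CPM of Cxcl1, 8609 CPM of Cxcl2, 215 CPM of Cxcl3, 195 CPM of Cxcl10, 4970 CPM of Cxcr2, 165 CPM of Cxcr4 and 138 CPM of Icam1. In ICAM1-high replicate 5 they were 11.5 CPM of Cxcl1, 1.71 CPM of Cxcl5 and 307 CPM of Cxcl10. The sets share libraries and are not independent.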

How the results depend on the processing

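Over all genes, 166 were higher and 37 lower. The counts were 258 higher with library sizes alone, 584 and 649 higher and lower with DESeq2, 480 and 376 with limma-voom and 280 and 261 with the replicate block. Lower calls were 120 without a filter, 61 with a filter of 10 CPM in 4 libraries and 190 without both libraries numbered 5. Leaving out 1 library gave 4 to 337 higher and 0 to 241 lower calls, and 0 to 2 members higher and 0 to 1 lower. Members called higher were 2 with DESeq2, limma-voom, no filter and the replicate block, and members called lower were 1 with upper-quartile scaling, library sizes alone, DESeq2, limma-voom, no filter, the filter of 10 CPM, the replicate block and without both libraries numbered 5. The all-gene median shifted by 0.13 (log2) under upper-quartile scaling and by 0.24 with unadjusted library sizes.

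Cxcl16 kept its direction in all 17 alternatives and its call in 11, with values of 3.71 to 4.96 when 1 library was left out. Cxcl9 ranged from 5.79 to 7.02 in those fits and was past the threshold with DESeq2 (6.24), no filter (6.24) and the replicate block (6.83). Counting the fits with 1 library left out, Cxcl9 was past it in 4 of 16 alternatives. Cxcr2 ranged from -3.51 to -2.19 in those fits and was past the threshold with upper-quartile scaling (-3.10), library sizes alone (-2.82), DESeq2 (-3.33), limma-voom (-2.32), no filter (-3.17), the 10 CPM filter (-3.19), the replicate block (-2.73) and without both libraries numbered 5 (-2.06). Cxcr2 was past it in 10 of 17 alternatives, and not with RLE scaling, used in place of TMM (-3.33; edgeR adjusted p = 0.0547). Cxcl10 was past it with limma-voom (3.37) and not with the replicate block (2.99; edgeR adjusted p = 0.0662). Cxcl3 turned to 0.23 with limma-voom, and Cxcl1 ranged from -0.16 to 2.86 with 1 library left out. Cxcr4, from -0.25 to 0.84 with 1 library left out, turned positive with upper-quartile scaling (0.12), library sizes alone (0.35), limma-voom (0.57), no filter (0.036), the 10 CPM filter (0.030), the replicate block (0.30) and without both libraries numbered 5 (0.72). The cause was not tested. DESeq2 gave no adjusted p for Cxcl2 and Cxcl10, and the 10 CPM filter removed Cxcl1 and Cxcl9.

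Same-numbered libraries did not deviate together in every pair (r of -0.15 to 0.38 across genes; 5 of 8 libraries correlated best with their own number). The labels do not say whether same-numbered libraries came from the same mouse, and these values do not settle it. The numbers were therefore not taken to pair the samples in the main fit, and the replicate block above gives results with them.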
